A study of Mus musculus with 768 samples.

Results

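The chemokine receptor genes *Cxcr3*, *Cxcr4*, *Cxcr6*, *Ccr2*, *Ccr7* and *Cx3cr1* were followed in single tumor-infiltrating NK cells. They were chosen by name, and all 6 were found among the 24490 entries of the expression tables. They belong to a family of 18 signalling chemokine receptor genes, and the other 12 are summarised at the end. Transcripts were measured with SMART-SEQ2, a full-length single-cell RNA-seq method without molecular identifiers, and are given as RPKM, reads scaled to the length of the gene and to the mapped reads of the cell. The WT cells came from C57BL/6 mice and the PD-1-/- cells from C57BL/6, PDCD-1(PD-1)-/- mice, which lack the inhibitory receptor PD-1 in every cell type through a deletion of part of *Pdcd1*. All mice were age-matched young adult males inoculated with MTAP1A, a clone of a *Tap1*-deficient fibrosarcoma with low MHC-I. Viable NK1.1+ cells without surface CD3 were sorted, with further lineage markers gated out, from the pooled tumors of 3 mice per genotype, onto 1 plate per genotype.

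Wells with 1000 to 3500 genes above 0 were kept, which left 726 of 768 wells, of which 360 held WT and the others PD-1-/- cells. The median cell had 2264.5 detected genes in WT and 2262.5 in PD-1-/-, from a median of 358714 and 382380.5 reads. NK cell markers were abundant: *Fcer1g* was detected in 725 of the 726 cells, *Klrb1c*, which encodes NK1.1, in 701 and *Ncr1* in 663. Transcripts of the CD3 chains *Cd3d*, *Cd3e* or *Cd3g* were present in 65 WT and 83 PD-1-/- cells despite the gate, so the receptors are also given without these cells. Each genotype was 1 pooled sample on 1 plate. Genotype, plate and pool therefore cannot be told apart, no test between genotypes was possible, and the exact 95% binomial (Clopper-Pearson) intervals of shares cover counting error only. *Pdcd1* transcripts cannot check the labels, because the deletion leaves part of the gene.

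Chemokine receptors are G protein-coupled receptors that steer leukocytes along gradients of small secreted proteins, the chemokines. CCR2 guides cells from blood into inflamed tissue, CXCR3 responds to the interferon-induced ligands CXCL9, CXCL10 and CXCL11, and CX3CR1 marks mature circulating NK cells. CXCR6, whose ligand is CXCL16, is found on NK cells and ILC1 that reside in liver and other tissues. CXCR4 retains immature lymphocytes in CXCL12-rich bone marrow, and CCR7 directs cells to lymph nodes through CCL19 and CCL21.

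*Ccr2* and *Cxcr3* were the common receptors of the tumor NK cells, *Cxcr4* and *Cxcr6* were present in a minority, and *Cx3cr1* and *Ccr7* were rare. Transcripts of *Ccr2* were found in 548 of 726 cells (75.5%, interval 72.2 to 78.6%) and those of *Cxcr3* in 48.1% (44.4 to 51.8%). *Cxcr4* followed with 17.2% (14.5 to 20.2%) and *Cxcr6* with 14.5% (11.98 to 17.2%). The intervals of this last pair overlapped. *Cx3cr1* was detected in 24 cells (3.31%, 2.13 to 4.88%) and *Ccr7* in 15 (2.07%, 1.16 to 3.38%), again with overlapping intervals.

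The genotypes differed in this order. In WT cells the shares were 80.6% for *Ccr2* (290 of 360, interval 76.1 to 84.5%), 45.6% for *Cxcr3* (40.3 to 50.9%), 18.9% for *Cxcr4* (68 cells, 14.98 to 23.3%) and 7.78% for *Cxcr6* (28 cells, 5.23 to 11.04%). WT cells with *Ccr7* numbered 10 (2.78%, 1.34 to 5.05%) and those with *Cx3cr1* 4 (1.11%, 0.304 to 2.82%). In PD-1-/- cells *Ccr2* was found in 70.5% (65.5 to 75.1%), *Cxcr3* in 50.5% (45.3 to 55.8%) and *Cxcr6* in 21.04% (77 cells, 16.97 to 25.6%). *Cxcr4* came after *Cxcr6* there, with 15.6% (57 cells, 12.01 to 19.7%), and the intervals of this pair overlapped. *Cx3cr1* was detected in 5.46% (20 cells, 3.37 to 8.31%) and *Ccr7* in 1.37% (5 cells, 0.445 to 3.16%).

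Intervals that did not overlap between the genotypes were those of 3 receptors. *Cxcr6* and *Cx3cr1* were detected in more PD-1-/- cells and *Ccr2* in fewer. Over the 14171 genes compared in the same way, 0.494% had a higher and 0.501% a lower share in PD-1-/- without overlap. The intervals of *Cxcr3*, *Cxcr4* and *Ccr7* overlapped. When each cell was thinned to 100000 reads, which left out 19 WT and 14 PD-1-/- cells below that depth, the shares were 78.9% and 68.2% for *Ccr2*, 6.27% and 19.01% for *Cxcr6*, and 0.963% and 5.13% for *Cx3cr1*. Without thinning the same cells gave 81.8% and 71.3%, 7.04% and 21.6%, and 1.17% and 5.68%.

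**Figure D1:**
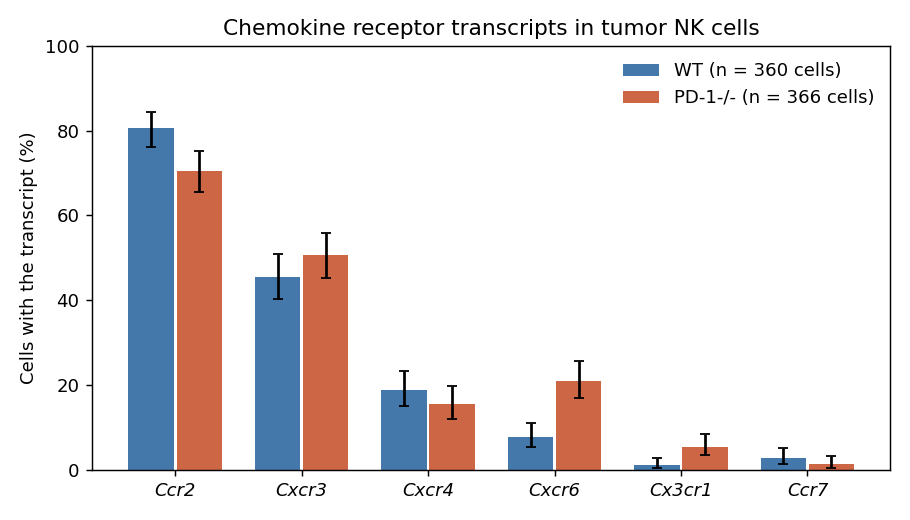
Share of kept cells with each receptor transcript (percent, vertical axis) in 726 WT and PD-1-/- cells, each genotype from 1 pooled sample; error bars are exact 95% binomial intervals. The bars of *Cxcr6* and *Cx3cr1* stand higher and that of *Ccr2* lower in PD-1-/- without overlap of the intervals.

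RPKM is a level per length of gene, so levels can be set side by side between receptors. In the cells that had the transcript, *Cxcr6* reached the highest median level, 506 RPKM in WT and 714 in PD-1-/-, although few cells had it. *Cxcr3* had medians of 398 and 431 RPKM and *Ccr2* of 305.6 and 347.8. *Cxcr4* was low, with 17.5 and 53.5 RPKM. The rare receptors had medians of 95.2 and 190 RPKM for *Cx3cr1* and of 243.9 and 88.9 RPKM for *Ccr7*, over few cells. The WT median of *Cx3cr1*, over 4 cells, was 40.1 RPKM without plate rows A and B. Below 10 RPKM lay 4 of the 24 cells with *Cx3cr1* and 4 of the 15 with *Ccr7*. Each receptor also had a tail of cells near the detection limit. The signal rested on 1 read in 28 cells with *Ccr2*, 18 with *Cxcr3*, 17 with *Cxcr6* and 9 with *Cxcr4*. It did so in 3 of the 15 cells with *Ccr7* and 2 of the 24 with *Cx3cr1*.

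**Figure D2:**
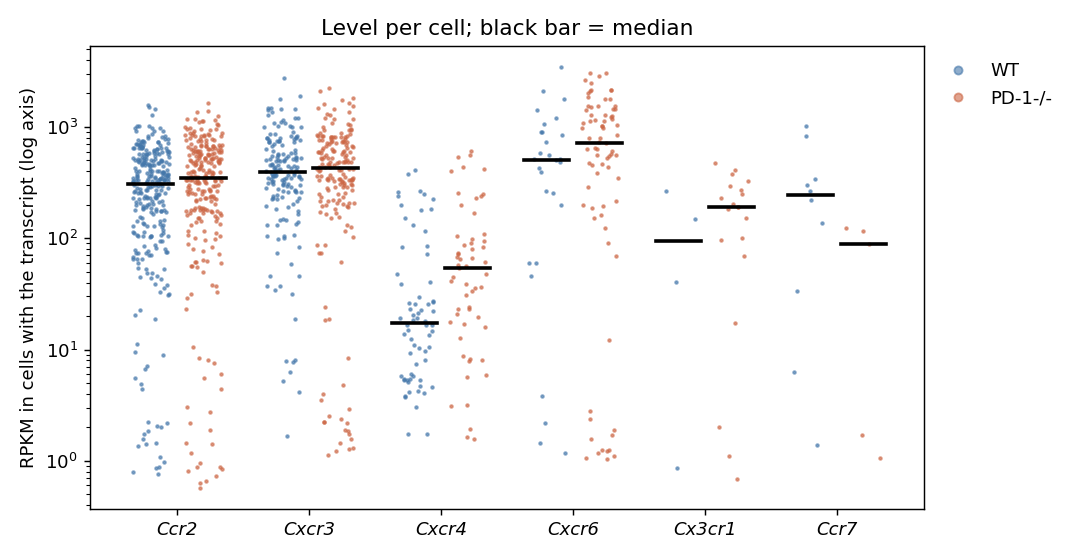
RPKM (log axis) in each cell with the transcript, by receptor and genotype; each point is 1 cell and the black bar is the median. *Cxcr4* lies lowest, with medians of 17.5 RPKM in WT and 53.5 RPKM in PD-1-/-, and *Cxcr6* highest, with 506 and 714 RPKM.

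*Ccr2*, the receptor for CCL2 and related chemokines, was detected in fewer PD-1-/- cells, while its mean level was similar. WT cells with it ranged from 0.766 to 1587 RPKM around the median of 305.6, with quartiles at 113.8 and 506 RPKM. PD-1-/- cells ranged from 0.574 to 1659 RPKM around 347.8, with quartiles at 170 and 598. The cells of the genotypes overlapped over nearly the whole range. The mean over all cells was 280 RPKM in WT and 288.7 in PD-1-/-, a log2 ratio of 0.04 on the scale of mean RPKM plus 1, whereas the mean of the log2 values per cell differed by -0.61. The ratio was -0.15 in the upper plate part (rows A to H) and 0.22 in the lower part (rows I to P). In rows A to H the share was 74.7% (67.7 to 80.9%) in WT and 66.8% (59.5 to 73.6%) in PD-1-/-, with overlapping intervals. In rows I to P it was 86.3% (80.39 to 90.9%) and 74.2% (67.2 to 80.37%), where the intervals lay just apart. Without cells with CD3 transcripts it was 84.1% (79.4 to 88.1%) and 74.9% (69.4 to 79.9%), and these intervals overlapped slightly. Cells with *Ccr2* also had more detected genes than those without, 2359 against 1947 at the median, and more reads, 372931 against 345921.5. The part of this in the detection of *Ccr2* was not tested.

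*Cxcr3*, the receptor for interferon-induced chemokines, hardly distinguished the genotypes. WT cells with the transcript ranged from 1.67 to 2764 RPKM, with a median of 398. PD-1-/- cells ranged from 1.12 to 2231 RPKM, with a median of 431. The means over all cells were 229.3 and 258.3 RPKM, a log2 ratio of 0.17. Cells with CD3 transcripts had *Cxcr3* more often, in 38 of 65 WT (58.5%, 45.6 to 70.6%) and 59 of 83 PD-1-/- cells (71.1%, 60.1 to 80.5%). Among cells without CD3 transcripts the shares were 42.7% (36.996 to 48.6%) and 44.5% (38.6 to 50.5%), so the intervals were apart in PD-1-/- and overlapped in WT.

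*Cxcr4*, the receptor for CXCL12, differed more in level among the cells that had it than in share. WT cells with it ranged from 1.74 to 413 RPKM, with quartiles at 5.77 and 42.2 RPKM, and 23 of the 68 cells lay below 10 RPKM. PD-1-/- cells ranged from 1.57 to 607 RPKM, with quartiles at 17.7 and 99.3 RPKM, and 11 of 57 lay below 10 RPKM. The ranges overlapped, while the lower quartile of the PD-1-/- cells was near the WT median. The median rested on 7.5 reads in WT and 24 in PD-1-/-. When only cells above 10 RPKM were counted, the share was 12.5% in WT and 12.6% in PD-1-/-. The mean over all cells was 11.1 RPKM in WT and 16.8 in PD-1-/-, a log2 ratio of 0.57 that stayed under 2-fold. As a difference of mean log2 values over all cells it was 0.01. The log2 ratio of means was -0.59 in plate rows A and B, over 10 WT and 5 PD-1-/- cells with *Cxcr4*, and 0.71 in rows C to P. Cells with CD3 transcripts had it in 18.2% and those without in 16.96% (98 of 578).

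*Cxcr6*, the receptor for CXCL16, was higher in PD-1-/- both in share and in level. WT cells with the transcript ranged from 1.17 to 3462 RPKM, with quartiles at 162.9 and 895. PD-1-/- cells ranged from 1.03 to 3077 RPKM, with quartiles at 193.8 and 1420. The levels of the genotypes overlapped and the upper quartile was higher in PD-1-/-. Means over all cells were 53.6 and 190.8 RPKM, a log2 ratio of 1.81. Of the 12030 genes whose mean reached 1 RPKM in either genotype, 4.71% were at least 2-fold higher and 7.34% at least 2-fold lower in PD-1-/-, and *Cxcr6* and *Cx3cr1* were in the first set and *Ccr7* in the second.

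The *Cxcr6* cells of the WT plate were unevenly placed. Plate rows A and B held 14 of the 28 WT *Cxcr6* cells, so the share was 36.8% there (14 of 38 cells, 21.8 to 54.01%) and 4.35% in rows C to P (14 cells, 2.40 to 7.19%). On the PD-1-/- plate it was 13.3% in rows A and B (6 of 45, 5.05 to 26.8%) and 22.1% in rows C to P (71 cells, 17.7 to 27.1%). The log2 ratio of means was therefore -1.61 in rows A and B and 2.99 in rows C to P, opposite in sign. The intervals overlapped in rows A and B and did not in rows C to P. None of the other 5 receptors had intervals on the WT plate that did not overlap between these blocks; *Ccr2*, for example, was found in 71.1% (54.1 to 84.6%) of WT cells in rows A and B and in 81.7% (77.01 to 85.7%) in rows C to P. CD3 transcripts moved with these rows: they were present in 52.6% (20 of 38, 35.8 to 69.02%) of WT cells in rows A and B and in 13.98% (10.4 to 18.2%) in rows C to P, and also in 13 of the 14 WT *Cxcr6* cells of rows A and B. Among cells without CD3 transcripts, *Cxcr6* was found in rows A and B in 1 WT cell of 18 and 2 PD-1-/- cells of 36, and in rows C to P in 9 WT (3.25%, 1.496 to 6.08%) and 42 PD-1-/- cells (17.004%, 12.5 to 22.3%). Over the upper plate part (rows A to H) the ratio of means, in log2, was 0.96, under 2-fold, and the intervals of the shares overlapped there, with 10.7% (6.55 to 16.2%) in WT and 17.9% (12.7 to 24.3%) in PD-1-/-. In rows I to P it was 3.02, with 4.95% (2.29 to 9.18%) against 24.2% (18.1 to 31.1%). What the rows stand for is not given in the sources used here.

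**Figure D3:**
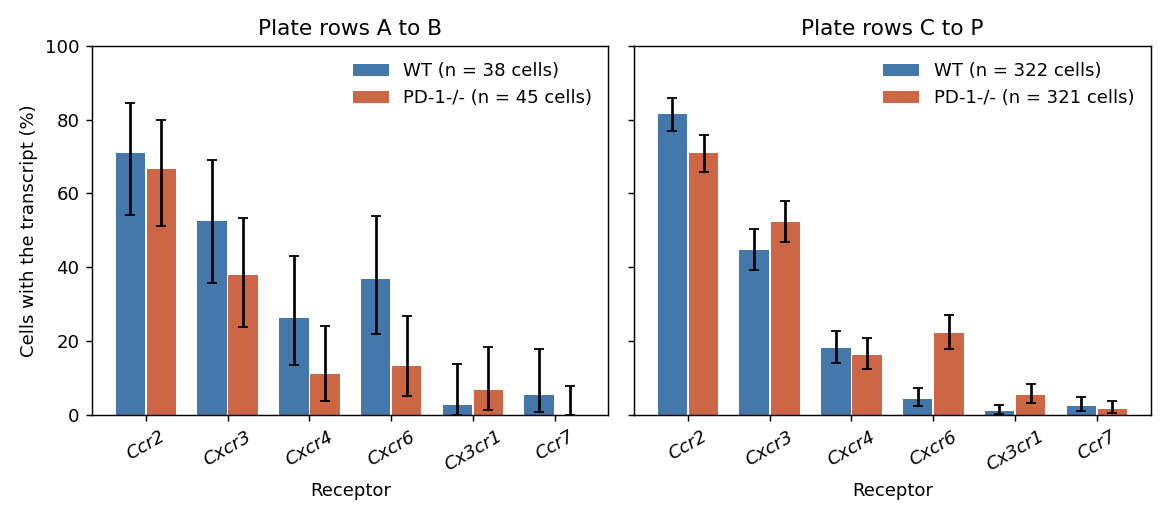
Share of cells with each receptor (percent, vertical axis) in plate rows A to B (left) and C to P (right), by genotype, with exact 95% binomial intervals as error bars. *Cxcr6* is higher in WT in rows A to B, at 36.8% against 13.3%, and higher in PD-1-/- in rows C to P, at 22.1% against 4.35%.

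Of the 6 receptors *Cxcr6* had the largest ratio of shares between cells with and without CD3 transcripts. A CD3 transcript was present in 51 of its cells, and the share with *Cxcr6* was 34.5% (26.8 to 42.7%) in cells with CD3 transcripts and 9.34% (7.10 to 12.01%) in cells without. The summed level of 10 T cell markers ranged from 0 to 6140 RPKM in cells with *Cxcr6*, with a median of 2.18, and from 0 to 5164 RPKM with a median of 0 in cells without. Of the 10 markers 9 were detected in cells with *Cxcr6*, and *Themis* was at 0. *Cd8a* was found in 8 and *Cd4* in 1 of these cells. The genotype difference was also present without these cells: *Cxcr6* was detected in 10 WT (3.39%, 1.64 to 6.15%) and 44 PD-1-/- cells (15.5%, 11.5 to 20.3%).

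*Cx3cr1*, the fractalkine receptor, was detected in 4 WT cells, at 0.857 to 265.7 RPKM, and in 20 PD-1-/- cells, at 0.686 to 477 RPKM. The WT values fell within the range of the PD-1-/- values. Mean levels were 1.27 and 10.5 RPKM, a log2 ratio of 2.34 that rests on few cells: it was 0.86 with 10 RPKM added to each mean instead of 1. In plate rows C to P the share was 0.932% (3 cells, 0.193 to 2.70%) in WT and 5.30% (17 cells, 3.11 to 8.34%) in PD-1-/-. Without cells with CD3 transcripts it was 0.678% (2 cells, 0.082 to 2.43%) and 5.65% (16 cells, 3.27 to 9.02%). The intervals overlapped within each plate part. Rows A to H held 2 WT (1.12%) and 13 PD-1-/- cells (7.07%) with it, and rows I to P held 2 (1.10%) and 7 (3.85%).

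*Ccr7*, the lymph node homing receptor, was the only one of the 6 with a lower mean in PD-1-/-. It was found at 1.39 to 1017 RPKM in 10 WT cells and at 1.07 to 122.5 RPKM in 5 PD-1-/- cells. Means were 8.76 and 0.905 RPKM, a log2 ratio of -2.36 carried by these 15 cells, while the intervals of the shares overlapped. None of the B cell markers *Cd79a*, *Cd79b* and *Ms4a1* was detected in the *Ccr7* cells. Of the 10 T cell markers 9 were detected there, with a summed level of 0 to 3926 RPKM and a median of 0, and 5 of the 15 cells had CD3 transcripts.

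The receptors were often found together. None of the 6 was detected in 70 cells (9.64%), 1 in 34.7%, 2 in 42.98%, 3 in 79 (10.9%), 4 in 12 (1.65%) and 5 in 1 cell. At least 2 were found in 53.6% of WT cells (48.3 to 58.9%) and 57.7% of PD-1-/- cells (52.4 to 62.8%), with overlapping intervals, and above 10 RPKM in 45% and 50.5%. Cells without any receptor had fewer detected genes, a median of 1777.5 against 2394 in cells with 2 receptors. The most frequent patterns were *Cxcr3* with *Ccr2* (26.7% of cells) and *Ccr2* alone (26.3%). *Ccr2* alone, 1 of the 36 patterns seen, was found in 31.1% of WT cells (26.4 to 36.2%) and 21.6% of PD-1-/- cells (17.5 to 26.2%). These intervals lay just apart, and the share of *Ccr2* itself was also lower in PD-1-/-. *Cxcr4* with *Ccr2* followed with 54 cells, and *Cxcr3*, *Cxcr6* and *Ccr2* together with 35.

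Pairs of receptors were compared with the count given by independent detection within each genotype. Of the 15 pairs, 10 had at least 5 expected cells. Among these, 1 pair lay well above that count, 2 pairs lay below 0.8 times it, and the other 7 had ratios between 0.81 and 1.04. The co-detected pair was *Cxcr3* and *Cxcr6*, with 73 cells against 51.7 (ratio 1.41). It was 1.49 in WT and 1.39 in PD-1-/- cells, 1.42 without cells with CD3 transcripts and 1.41 when the count was taken separately in cells with few and with many detected genes. *Cxcr3* was also higher where *Cxcr6* was present, with a median of 543 RPKM in 73 cells against 367.4 RPKM in the others.

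*Cx3cr1* was found with *Ccr2* less often than independent detection gives, in 9 cells against 17.3 (ratio 0.52), with a ratio of 0.62 in WT, where it rests on 2 cells, and 0.50 in PD-1-/-. Without cells with CD3 transcripts the ratio was 0.51. In those 9 cells *Ccr2* had a median of 142.5 RPKM (60.9 to 299.5), against 334.8 RPKM in cells with *Ccr2* but no *Cx3cr1*. With *Cxcr3* it was found in 9 cells against 11.9 (0.75). Each of the 15 pairs was seen together in at least 2 cells. For pairs with under 5 expected cells this depended on few cells: 0 cells had both *Cxcr4* and *Cx3cr1*, or both *Cxcr6* and *Ccr7*, without cells with CD3 transcripts, and 0 had *Ccr7* with *Cx3cr1* above 10 RPKM or *Cxcr6* with *Ccr7* without rows A and B. *Ccr2* and *Cxcr6* overlapped in 66 cells against 76.8 (0.86), and the ratio was 0.99 without cells with CD3 transcripts. *Cxcr4* showed little relation to *Ccr2* (97 cells against 94.96) or *Cxcr3* (54 against 59.8). Over the 726 cells, Pearson's r of log2(RPKM + 1) between receptors lay between -0.16 and 0.19, values that share each cell's depth and are given as a description.

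**Figure D4:**
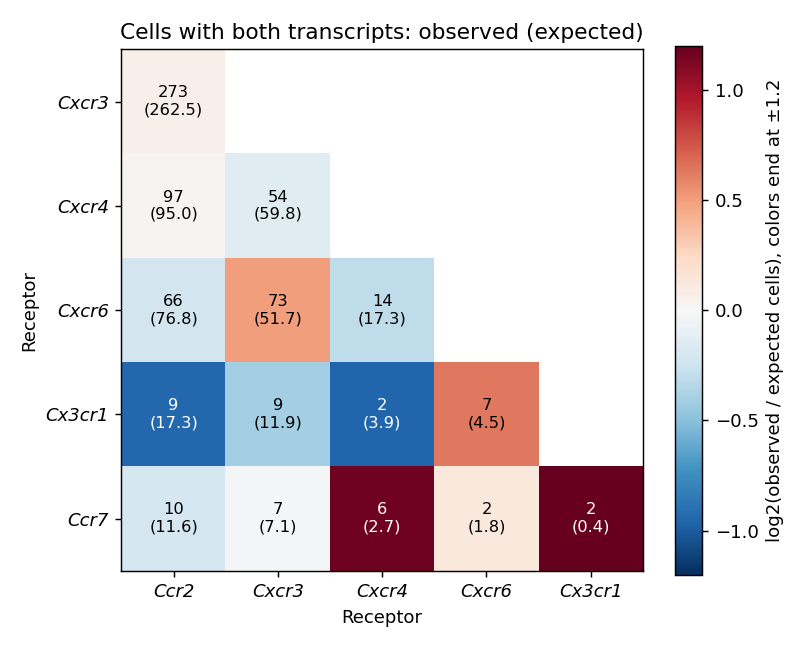
Cells with both transcripts of each receptor pair (number, with the expected number in parentheses); color is the log2 ratio of observed to expected. *Cxcr3* with *Cxcr6* (73 against 51.7) lies above and *Ccr2* with *Cx3cr1* (9 against 17.3) below the expected number; pairs with fewer than 5 expected cells rest on few cells.

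The promoters of *Cxcr3* and *Cxcr6* are shown because this pair was the one found together more often than independent detection gives. The letters are from RefSeq (GRCm38.p6), 5′ to 3′ on the strand of the gene, and end just before the first start that RefSeq or GENCODE gives. Capitals mark the Ets motif AGGAAGT or its reverse complement. The stretches are chrX:101734270-101734397 on the minus strand and chr9:123806227-123806474 on the plus strand.
Cxcr3: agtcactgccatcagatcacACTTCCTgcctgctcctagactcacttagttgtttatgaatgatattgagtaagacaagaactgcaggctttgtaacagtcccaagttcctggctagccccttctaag
Cxcr6: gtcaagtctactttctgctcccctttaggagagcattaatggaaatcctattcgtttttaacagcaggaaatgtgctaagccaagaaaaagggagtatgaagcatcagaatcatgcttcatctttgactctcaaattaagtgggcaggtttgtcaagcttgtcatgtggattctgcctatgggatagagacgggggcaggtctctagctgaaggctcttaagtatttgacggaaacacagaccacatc
The T-box motif GGTGTGA, the Runx motif TGTGGTT and the Ets motif, which name families of factors active in NK cells, were searched on both strands of the 250 bases before the RefSeq start. Of 32817 promoters 3.33%, 4.39% and 7.69% held them. A RefSeq promoter was matched for 5 of the 6 receptors, and not for *Ccr7*. The *Cxcr3* promoter held 2 Ets matches, 1 of them in the stretch shown, and the other 4 promoters held none of the 3 motifs.

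The genes lie apart or in clusters as GENCODE vM21 (GRCm38) places them. *Cxcr6* (chr9:123806475-123811760, plus strand) lies inside *Fyco1* on the opposite strand, and 0 of its 1931 exonic bases fall in *Fyco1* exons. *Fyco1* was detected in 19.05% of cells with *Cxcr6* and 10.6% without, and with libraries that do not keep the strand the reads of intronic *Fyco1* RNA over *Cxcr6* cannot be told apart. *Ccr2* (chr9:124101950-124113557, plus strand) lies 290 kb from *Cxcr6*. *Cx3cr1* (chr9:119901616-120069879, minus strand) is on the same chromosome. *Cxcr3* is at chrX:101731535-101734269, *Cxcr4* at chr1:128588199-128592293 and *Ccr7* at chr11:99144196-99155077, all on the minus strand.

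Other genes of NK cell maturation and residence differed between cells with and without each receptor. A gene was counted when its share was at least 2 times higher or lower, among 8575 genes found in at least 5% of cells (8576 for *Ccr7* and *Cx3cr1*). Cells are not independent samples of a condition, so these counts carry no test. Cells with *Cxcr6* had 3 of 5 resident-type genes more often, where the background was 1.99% of all genes. *Itga1*, which encodes the collagen-binding integrin CD49a, was found in 54.3% (44.3 to 64.04%) of cells with *Cxcr6* and 13.04% (10.5 to 15.9%) without. *Tnfsf10*, which encodes TRAIL, was found in 33.3% against 11.4%, and *Il7r*, the IL-7 receptor, in 21.9% against 6.76%. *Rgs1* (60% against 44.6%) and *Cd69* (32.4% against 33.7%) stayed below the limit. Fewer *Cxcr6* cells had *Eomes*, the T-box factor of conventional NK cells, with 25.7% (17.7 to 35.2%) against 64.1% (60.2 to 67.9%), where 2.24% of all genes were as much lower. Among the 7 circulating-type genes only *Cma1*, a mast cell protease, was lower by this limit (3.81% against 10.6%), and *Klf2*, a factor of lymphocyte egress, was at 20.95% against 41.1%. In cells without CD3 transcripts, *Itga1* was at 53.7% against 11.8% and *Eomes* at 27.8% against 64.9%.

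Cells with *Cx3cr1* differed from the rest in the circulating-type list, in which 5 of 7 genes were at least 2 times as frequent, where the background was 3.56%. Of these 24 cells 20 were PD-1-/-, so genotype, plate and pool also enter these shares. *S1pr5*, a receptor for egress, was found in 50% (29.1 to 70.9%) of the 24 cells with *Cx3cr1* and 23.1% (20.01 to 26.4%) without. *Klrg1*, an inhibitory receptor of mature NK cells, was found in 50% against 17.8%, *Itgam*, which encodes CD11b, in 45.8% against 18.4%, *Cma1* in 37.5% against 8.69% and *Zeb2*, a factor of terminal maturation, in 37.5% against 11.97%. *S1pr1* was at 16.7% against 16.4%. *Tcf7*, which encodes the factor TCF-1 of less mature cells, was found in 16.7% (4.74 to 37.4%) against 47.4% (43.7 to 51.2%), where 13.9% of all genes were as much lower. *Il7r* was found in 0 of the 24 cells, which allows a share of up to 12.5% (3 cells), with an exact upper limit of 14.2%. *Cmklr1*, a chemerin receptor, was found in 29.2% (12.6 to 51.1%) against 6.13%. Without cells with CD3 transcripts, *Itgam* was in 61.1% against 20.2% and *Cma1* in 50% against 9.64%.

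**Figure D5:**
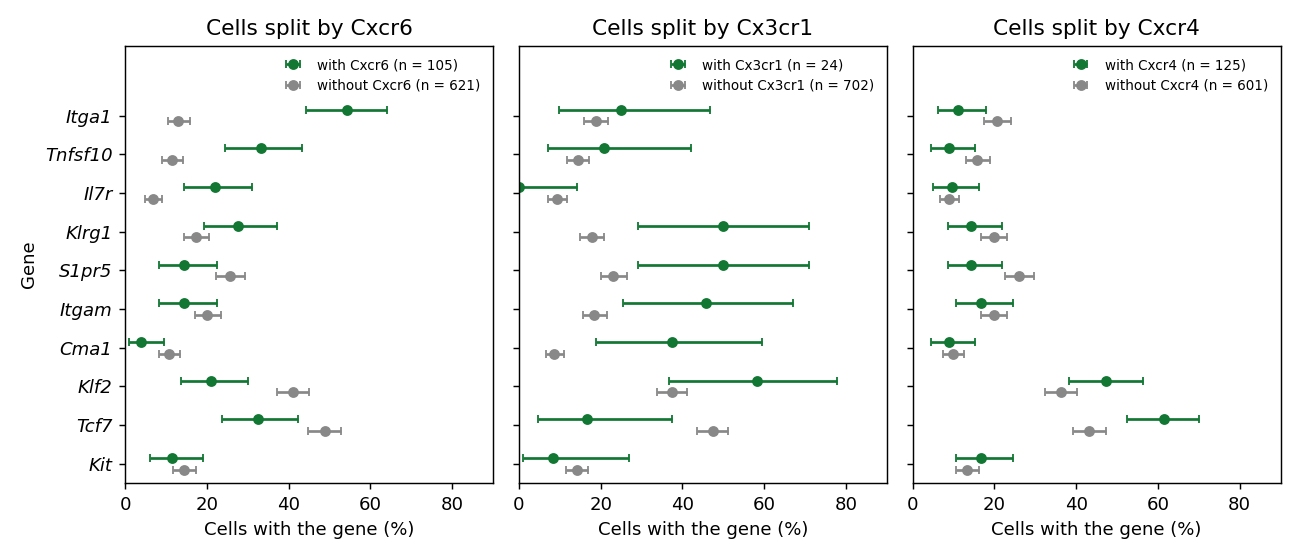
Share of cells (percent, horizontal axis) with 10 maturation and residence genes, in cells with (green) and without (gray) *Cxcr6*, *Cx3cr1* or *Cxcr4*; error bars are exact 95% binomial intervals over cells. *Itga1*, *Tnfsf10* and *Il7r* are more frequent with *Cxcr6*, and *S1pr5*, *Klrg1*, *Itgam* and *Cma1* with *Cx3cr1*.

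Cells with *Ccr2* or *Cxcr3* differed in few genes of these lists. With *Ccr2*, the immature-type gene *Kit* was found in 16.6% (13.6 to 19.99%) against 5.62% (2.73 to 10.1%), the only 1 of 3 immature-type genes past the limit, where the background was 4.38%. All 4 T cell markers tested were lower, as *Cd3e* with 4.56% against 26.4%, where 0.222% of all genes were as much lower. These 4 were the CD3 chains and *Bcl11b*. None of them passed the limit without cells with CD3 transcripts, where the chains are absent by choice of the cells. *Il7r* was also lower, at 6.57% against 16.3%, and without cells with CD3 transcripts these shares were 6.30% and 8.47%. Of the 7 circulating-type genes *Cma1* was lower, at 7.66% against 15.7%, and without cells with CD3 transcripts both *Cma1* (8.04% against 22.03%) and *Zeb2* (10.7% against 23.7%) were. With *Cxcr3*, all 4 T cell markers tested were more frequent, where the background was 0.606%. Again none of the 4 passed the limit without cells with CD3 transcripts. *Cma1* was lower with *Cxcr3*, at 4.58% (2.64 to 7.34%) against 14.3% (10.9 to 18.3%), where the background was 0.0466%. In cells without CD3 transcripts *Cma1* was at 4.37% against 15.95%. *Il7r* was the only 1 of the 5 resident-type genes past the limit with *Cxcr3*, at 13.2% against 5.04%, and at 9.92% against 4.29% without cells with CD3 transcripts.

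Cells with *Cxcr4* passed the limit in none of the 15 resident-, circulating- and immature-type genes tested, where 0.303% of all genes were as much higher and 2.55% as much lower. *S1pr1*, an egress receptor, was at 26.4% (18.9 to 35.03%) against 14.3% (11.6 to 17.4%), and passed the limit without cells with CD3 transcripts, at 25.5% against 12.7%. So did *Tnfsf10* there, lower at 7.14% against 14.8%. *Tcf7* was at 61.6% (52.5 to 70.2%) against 43.3% (39.3 to 47.3%). *S1pr5* was lower, at 14.4% (8.76 to 21.8%) against 25.96% (22.5 to 29.7%). *Rgs2*, a regulator of G protein signalling, was found in 45.6% (36.7 to 54.7%) against 25.96% (22.5 to 29.7%). In the 15 cells with *Ccr7*, 9.25% of all genes were at least 2 times as frequent and 13.1% at least 2 times less. Of the 4 T cell markers tested 3 were among the first set, and none was without cells with CD3 transcripts.

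For each receptor the genes most like it in level over cells were ranked by the lower of Pearson's r in WT and in PD-1-/- cells, among 8265 genes in at least 5% of the cells of each genotype (8266 for *Ccr7* and *Cx3cr1*). These are descriptions over cells that share a plate. *Cxcr6* was most like *Inpp4b*, a lipid phosphatase (r = 0.38 in WT and 0.44 in PD-1-/-), *Itga1* (0.38 and 0.44), *Ly6c2* (0.38 and 0.47), *Cd3e* (0.48 and 0.36) and *Cd3g* (0.41 and 0.34). *Cxcr3* was most like *Ltb*, which encodes lymphotoxin beta (0.27 and 0.31), *Thy1* (0.28 and 0.26), *Ly6e*, *Cd160* and *Psmb8*. *Ccr2* was most like *Ctla2a* (0.26 and 0.36), the adaptor gene *Tyrobp* (0.26 and 0.30), *Dock8*, *Eif3k* and *Eomes* (0.23 and 0.29). *Cxcr4* was most like *Tnfaip3*, an inhibitor of NF-kB signalling (0.29 and 0.28), *Rgs2* (0.22 and 0.18), *Emb*, *Gpr183* and *Klf6*. The best r stayed at 0.27 or below for *Ccr7* (*Lap3*, 0.21 and 0.27) and at 0.21 or below for *Cx3cr1* (*Dock5*, 0.13 and 0.15).

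Of the other 12 receptors of the family, 10 were detected. *Cxcr5*, the receptor of follicular lymphocytes, was found in 22 WT (6.11%) and 8 PD-1-/- cells (2.19%), at mean levels of 0.695 and 0.0887 RPKM. Of the 12, 8 were found in under 1% of cells, *Ccr1*, *Ccr3* and *Ccr4* among them, and the neutrophil receptors *Cxcr1* and *Cxcr2* were found in 0 of 726 cells, which allows a share of up to 0.413% (3 cells), with an exact upper limit of 0.507%. A mean of 1 RPKM was reached by 6 of the 12, of which *Ccr4* and *Ccr8* were at least 2-fold higher and *Ccr9* at least 2-fold lower in PD-1-/-, where 4.71% and 7.34% of all genes were. They are named for these values, which rest on 2, 11 and 6 cells, and none of the 12 had intervals without overlap. Ligands of the 6 receptors were rare in the NK cells: 8 of 11 were detected and none in 5% of cells, *Cxcl10* being the most frequent with 11 WT and 4 PD-1-/- cells. All 26 genes of the signalling chain behind the receptors were detected, 23 of them in at least 5% of cells, among them the small GTPase gene *Rac2* in 97.8% and 98.9% and the G protein subunit *Gnai2* in 72.2% and 78.1% of WT and PD-1-/- cells. None of these 26 reached 2-fold between genotypes, and their median log2 ratio was 0.05, against -0.03 over all 12030 genes.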

How the data were processed

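Tumor NK cells of 1 pooled sample of 3 mice per genotype were profiled by SMART-SEQ2, 1 plate of 384 wells each. The labels name 382 sorted cells, and the tables hold 768 wells. The authors deposited RPKM per gene and well. The submitters' processing notes name TopHat, Cufflinks and the builds mm9 and mm10 without roles, and the mapping build, versions and counting of strand are not given in the sources used here. Genes above 0 in at least 3 wells were used, and wells with 1000 to 3500 such genes were kept. A gene above 0 was called detected. No doublet caller was run on the sorted wells, and no wells held identical values. Groups were taken from the genotype labels.

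Whole reads were recovered from the steps of the deposited RPKM values, for 10172 genes, all 6 receptors included. Of 697711 values below 60 reads in these genes, 98.7% came out whole within 0.0003 of the read number. A gene was taken only if at least 80% of its low values were whole, so a high percentage was partly set by this choice. They gave depth and thinning only, since 1 sample per genotype allows no count test. Depth per cell ran from 1563 to 532391 reads in WT and from 2050 to 650353 in PD-1-/-. Reads without molecular identifiers are not independent molecules.

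Shares have exact 95% Clopper-Pearson intervals. Ratios are log2((mean RPKM + 1)/(mean RPKM + 1)), PD-1-/- over WT, and understate changes of low genes. A ratio of 2-fold or intervals without overlap is a rule of size, not a test. Expected pair counts multiply the shares within a genotype. Named genes were the receptors, members of fixed lists with the largest share or difference, and the 5 genes most correlated with each receptor. The members and lists were chosen with earlier results of these data known. The scripts were tested on simulated data. Of the listed genes *Zfp683* was not found under that symbol. Some measured genes are not reported here. Marker lists of B, myeloid, neutrophil, dendritic and fibrosarcoma cells were each found in under 5% of all cells for every gene. The breakdown of *Cxcr6* by plate rows and CD3 transcripts was chosen after the values were seen. Alternatives (29 planned, 0 added) are in the closing section. Python 3.11.15, numpy 2.4.6, pandas 2.3.3, scipy 1.17.1 and matplotlib 3.10.9 were used.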

Additional observations from a re-analysis of the deposited data

Results flagged for a closer look

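Wells left out for more than 3500 detected genes also held the receptors. Of these 30 wells, *Cxcr3* was detected in 20, *Ccr2* in 26, *Cxcr6* in 10 and *Ccr7* in 5, and 8 of the wells had at least 3 of the 6 receptors. *Ccr7* was thus in 16.7% of these wells, against 2.07% of the kept cells.

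A pair with *Cxcr4* differed in direction between the genotypes, and the genotype difference in *Cxcr4* changed sign between the plate parts. Neither was tested. Cells with both *Cxcr4* and *Ccr2* were 0.986 times the expected number in WT (54 against 54.8) and 1.07 times in PD-1-/- (43 against 40.2). Both counts were thus close to the expected ones. The share of cells with *Cxcr4* in PD-1-/- minus that in WT was -8.87 percentage points in the upper plate rows (A to H) and 2.20 in the lower ones (I to P). The intervals of WT and PD-1-/- overlapped in both, with 16.1 to 28.7% and 8.54 to 18.8% in the upper rows. In the lower rows they were 10.9 to 22.1% and 12.8 to 24.5%.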

How the results depend on the processing

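No paired analysis was possible because each genotype was 1 pooled sample without a test, and the well numbers shared by the labels only name wells. Over the 29 alternatives, 28 values of the main comparisons moved past their limits (the interval of a share, or 1.5-fold) and none turned a 2-fold difference around. Rows A and B alone were not among the alternatives. There the log2 ratio of *Cxcr6* was -1.61, against 1.81 over all kept cells.

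Counting only cells above 10 RPKM gave 12.5% of WT cells with *Cxcr4*, 74.2% and 64.5% of WT and PD-1-/- cells with *Ccr2*, and 45% and 50.5% with at least 2 receptors. In WT cells, *Cxcr6* was at 4.95% in rows I to P, 4.35% without rows A and B and 3.39% without cells with CD3 transcripts, and *Ccr2* at 74.7% in the upper (A to H) and 86.3% in the lower plate rows (I to P). Without cells with CD3 transcripts, PD-1-/- shares were 44.5% for *Cxcr3* and 15.5% for *Cxcr6*.

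The log2 ratio of *Cxcr6* was 0.96 in rows A to H, where it fell under 2-fold and the share intervals overlapped, then 3.02 in rows I to P, 2.99 without rows A and B, 2.48 without cells with CD3 transcripts and 1.12 as a difference of mean log2 values. That difference was -0.61 for *Ccr2*, -0.13 for *Ccr7* and 0.30 for *Cx3cr1*. In rows I to P the ratio was -3.26 for *Ccr7* and 3.15 for *Cx3cr1*. A pseudocount of 0.1 RPKM gave -3.14 and 2.95, and one of 10 RPKM gave -0.78 and 0.86, so neither is 2-fold under each of these scales. With a mean of at least 10 RPKM required, 93 genes were at least 2-fold higher and 85 lower, against 567 and 883. Fewer genes were compared there, and the share of them past 2-fold is not given here. The causes of these shifts were not tested.

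With 1 pool per genotype, the spread between mice is unknown. For *Ccr7* and for WT *Cx3cr1* the small number of cells limits the precision. Some of these cells also rested on 1 read, 3 of 15 with *Ccr7* and 1 of the 4 WT cells with *Cx3cr1*.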
